A study of Mus musculus with 1183 samples.

Results

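Mac IV is the name the labels give to one of 16 immune subtypes of the neonatal mouse lung, and its members here are the 63 cells of a female mouse and the 79 cells of a male mouse that carry it, 12% of 1183 cells in all. Each cell was sorted into a well and sequenced as a library of its own. Every cell came from distal lung at postnatal day 7 under hyperoxia, a raised oxygen level that injures the developing lung, and strain, genotype and oxygen level are not given in the sources used here. The labels name 1 animal of each sex, so sex and animal cannot be told apart and the animal was the replicate. Lung cells at normal oxygen are not analysed here. As the names were probably given from expression in the cells themselves, a comparison between subtypes describes how the labelled classes differ and is not independent evidence for them.

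Nearly all Mac IV cells came from plates gated on CD45, the common leukocyte antigen: 31 and 32 from the plates of the female and 37 and 41 from those of the male. Their shares of the cells in the data from each plate were 10.8% (exact Clopper-Pearson 95% interval 7.43 to 14.9), 10.5% (7.31 to 14.5), 12.7% (9.08 to 17) and 14.2% (10.4 to 18.8), and the 4 intervals overlapped. The remaining Mac IV cell came from a plate of the male sorted for CD31, an endothelial surface protein. Depth in Mac IV ran from 112073 to 4837078 reads per cell, with medians of 1341706 in the female and 1489855 in the male. Summed, the 2 libraries held 95479456 and 117869798 reads. Xist, the non-coding RNA of X inactivation, stood at 251.5 CPM (reads scaled to the total of the library) in the female and 0.00853 in the male, and the Y-linked Ddx3y at 0 and 56.1 CPM.

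The tissue-resident macrophages of the lung fall into those of the air space and those of the interstitium around vessels and airways. Macrophages of the interstitium are known for the subunits of C1q, which starts the classical complement pathway when it binds antibody or dying cells, and for chemokines that draw monocytes through the receptor CCR2. They are also known as a source of IGF1, a growth factor for epithelium and mesenchyme. Mac IV was compared over 12 genes of interstitial macrophages, C1qb and C1qc among them, and 12 of alveolar macrophages. Of the 12 interstitial genes, 10 were higher in Mac IV than in Mac III, 6 than in Mac V and 3 than in Mac II, and 0 were lower in any. Over all genes tested, 2.78%, 3.74% and 1.70% were higher in these comparisons. Of 11 alveolar genes tested, 0 were higher and 6 lower than in Mac III, 1 and 2 than in Mac V, and 0 and 4 than in Mac II, where 2.45%, 3.33% and 2.24% of all genes were lower. Mac III is the most numerous macrophage subtype here, with 390 cells and high levels of alveolar genes. Both lists were chosen with earlier results of these data known, so the counts describe Mac IV and are no check of its label.

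The C1q genes are neighbours, in the order C1qb, C1qc and C1qa on chromosome 4, and Ccl2, Ccl7, Ccl11, Ccl12 and Ccl8 follow each other on chromosome 11, in the RefSeq annotation of GRCm38.p6. Because members of these clusters moved together over cells, the 250 bases before the start are shown for the 3 genes of the clusters that the RefSeq table of GRCm38.p6 holds among C1qa, C1qb, C1qc, Ccl7 and Ccl12. C1qb lies at chr4:136886201-136886450 on the minus strand, C1qc at chr4:136892915-136893164 on the minus strand and Ccl12 at chr11:82101595-82101844 on the plus strand. Capitals mark matches, on either strand, to GAGGAA (the core of sites for PU.1, a factor of the macrophage lineage), TGCTGA (part of the element bound by MAF proteins), TGANTCA (AP-1) and a kappa B type motif (G, G, G and A, any 4 bases, then C and C).
C1qb: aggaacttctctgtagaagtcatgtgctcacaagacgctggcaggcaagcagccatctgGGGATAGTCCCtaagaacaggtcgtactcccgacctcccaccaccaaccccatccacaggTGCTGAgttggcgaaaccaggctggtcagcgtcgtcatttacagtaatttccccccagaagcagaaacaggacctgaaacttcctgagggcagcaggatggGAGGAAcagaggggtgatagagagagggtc
C1qc: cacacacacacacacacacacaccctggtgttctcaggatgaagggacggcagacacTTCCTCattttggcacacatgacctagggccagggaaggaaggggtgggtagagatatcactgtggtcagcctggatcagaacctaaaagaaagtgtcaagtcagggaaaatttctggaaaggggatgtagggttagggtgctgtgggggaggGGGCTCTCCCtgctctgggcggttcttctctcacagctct
Ccl12: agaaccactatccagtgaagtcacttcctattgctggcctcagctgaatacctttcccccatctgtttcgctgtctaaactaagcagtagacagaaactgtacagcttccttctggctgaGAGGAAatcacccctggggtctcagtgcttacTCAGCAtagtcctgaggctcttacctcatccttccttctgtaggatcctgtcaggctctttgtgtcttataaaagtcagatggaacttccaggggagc
Each of the 3 windows held 1 match to GAGGAA, which 23.3% of 32851 windows of this length hold. TGCTGA was matched in C1qb and Ccl12 (16.1% of windows) and the kappa B type motif in C1qb and C1qc (17.6%), where the 2 matches in C1qb overlap each other. None held TGANTCA (6.75%). The table also holds Igf1 and Pf4, each with 1 match to GAGGAA.

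The C1q genes were high in Mac IV in both animals. C1qa, the A chain, stood at 3916 CPM in the female and 5218 in the male, C1qb at 6536 and 8068, and C1qc at 3763 and 5446.1. Mac II was next for each chain: C1qa stood there at 204.2 and 122.4 CPM, C1qb at 865 and 752, and C1qc at 144.9 and 164.9. Mac III and Mac V, a subtype with high monocyte genes, lay lower still, with C1qb at 4.94 and 0.497 CPM in Mac III and 33.4 and 0 in Mac V, C1qc at no more than 4.30 CPM, and C1qa at 0.00478 and 0.00425 CPM in Mac III and at 0 reads in Mac V. Every comparison between subtypes below used the quasi-likelihood test of edgeR. Throughout, ± is an approximate SE, the size of the difference divided by the square root of the test's F statistic. C1qa was higher in Mac IV than in Mac II by 4.81 ± 0.36 on the log2 scale (adjusted p = 0.00165). Against Mac V it was at least 197473-fold higher, counting 3 reads over both animals for the group at 0. C1qc was higher than in Mac III (17.90 ± 2.36, adjusted p = 0.00489) and Mac V (10.98 ± 1.88, adjusted p = 0.0140), and its difference from Mac II was 4.89 ± 1.45 (adjusted p = 0.103). C1qb differed by 11.42 ± 2.69 from Mac III, 8.71 ± 2.43 from Mac V and 3.17 ± 1.89 from Mac II, and passed the test in none (adjusted p = 0.0507, 0.0694 and 0.360), although each of its Mac IV libraries lay above every library of those subtypes. With the animal as a block, the adjusted p against Mac III was 0.0446.

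The chemokine markers were high in Mac IV and close to 0 in the other 3 macrophage subtypes tested. Ccl7, a ligand of CCR2, stood at 547 CPM in the female and 1693 in the male, Ccl12, another CCR2 ligand, at 603 and 1319.6, and Ccl24, which draws eosinophils, at 279.8 and 328.5. Neither Ccl7, Ccl12 nor Ccl24 had a read in Mac II, and in Mac III and Mac V none passed 0.0143 CPM. Against Mac II they were at least 26232-fold, 22516-fold and 7124-fold higher. Outside the macrophages, Ccl7 was also high in mast cells, at 619.6 CPM in the female and 247.6 in the male. There 8 of 59 cells, 13.6% (exact interval 6.04 to 25), reached 10 CPM, at a median depth of 1164290 reads. The Mac IV library of the female stood at 0.884 times the mast cell library of the female. Igf1 stood at 759 and 859 CPM in Mac IV, 181.3 and 85 in Mac II, 49.4 and 45 in Mac III, and 0 and 4.93 in Mac V. Its 2 Mac IV libraries lay above all others, but the test passed against Mac V alone (8.33 ± 1.92, adjusted p = 0.0408; with the animal as a block, adjusted p = 0.0568), with adjusted p = 0.182 against Mac III and 0.336 against Mac II.

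**Figure D1:**
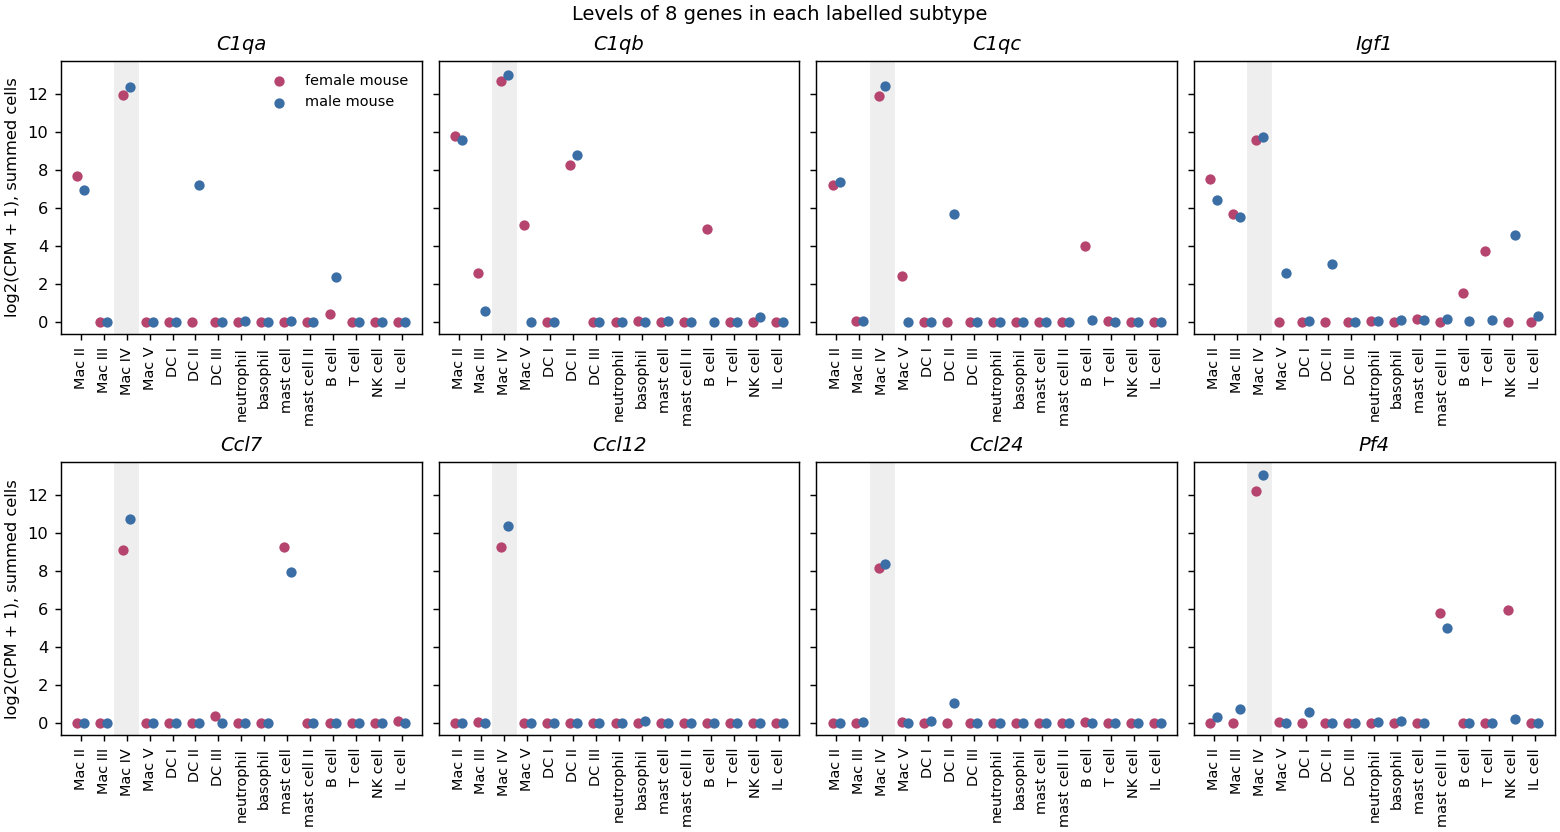
The vertical axis is log2(CPM + 1) of the summed cells of each animal, and the horizontal axis lists the 15 subtypes that have 5 cells or more in both animals; points are animals and the grey band marks Mac IV. Both Mac IV points are highest for C1qa, C1qb, C1qc, Igf1, Ccl12, Ccl24 and Pf4, while Ccl7 also appears in mast cells (619.6 and 247.6 CPM).

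C1qa and Igf1 were found in nearly every Mac IV cell, and the chemokine markers in a part of them. C1qa reached 10 CPM in 60 of 63 cells of the female (95.2%, exact interval 86.7 to 99) and 76 of 79 of the male (96.2%, 89.3 to 99.2). Igf1 did so in 88.9% (78.4 to 95.4) and 91.1% (82.6 to 96.4). Ccl12 reached this level in 54% (40.9 to 66.6) and 72.2% (60.9 to 81.7), Ccl7 in 47.6% (34.9 to 60.6) and 63.3% (51.7 to 73.9), and Ccl24 in 46% (33.4 to 59.1) and 50.6% (39.1 to 62.1). The intervals of the 2 animals overlapped for every marker. These intervals cover counting error only, and reads without molecular identifiers are not independent molecules. As background, the same share in Mac III, at a median of 1108525 reads, was 0% for C1qa and each of the 3 chemokines and 31.3% for Igf1. In Mac II, at a median of 1379050 reads, it was 17% for C1qa and 46.8% for Igf1. All 5 markers were present at 10 CPM in 36 cells, 4 in 44, 3 in 34, 2 in 21, 1 in 4 and none in 3.

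Single cells differed widely in their chemokines. Ccl7 had a median of 0 CPM in the female and 259.02 in the male, with highest cells of 6909.7 and 18624 CPM. Ccl12 had medians of 93.8 and 356.1 CPM and highest cells of 9398 and 13687. C1qa ranged less, with medians of 3271 and 5165 CPM and highest cells of 10599 and 11813. Ccl7 and Ccl12 occurred together in 68 cells, Ccl7 alone in 12, Ccl12 alone in 23 and neither in 39. Cells with Ccl24 and Ccl7 together numbered 45, with Ccl24 alone 24 and with Ccl7 alone 35. Ccl8, a further CC chemokine, stood at 67.1 and 91.6 CPM in the sums but was found in 12 cells, and a single cell held 24% of its reads.

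**Figure D2:**
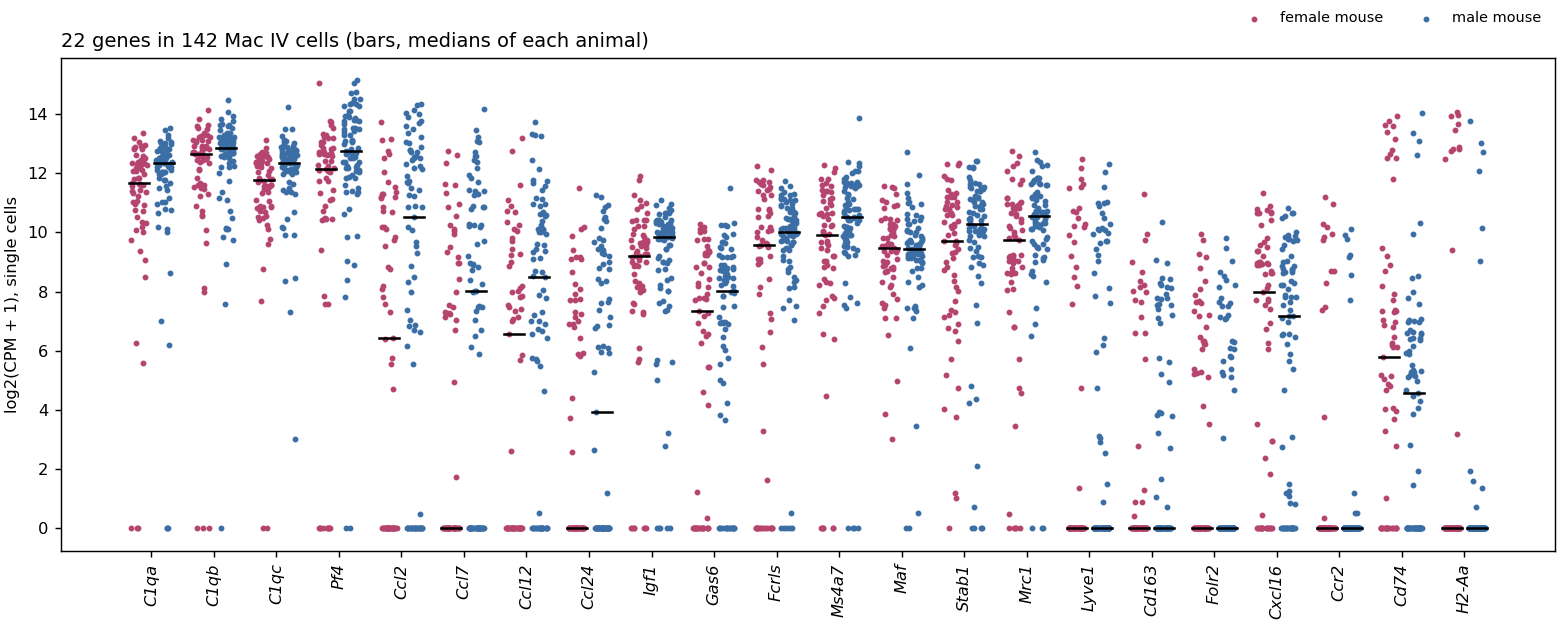
The vertical axis is log2(CPM + 1) in single Mac IV cells, 63 of the female and 79 of the male, for 22 genes; bars are the medians of each animal. C1qa, C1qb, C1qc and Pf4 are high in nearly all cells, while Ccl7, Ccl24, Lyve1 and H2-Aa have cells both at 0 and at high levels.

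Each comparison with another macrophage subtype rested on 2 summed libraries a group and 14400 genes tested. Against Mac III, 754 genes were called, 401 as higher in Mac IV (2.78% of those tested) and the others as lower (2.45%). Against Mac V, 538 were higher (3.74%) and 480 lower (3.33%), and of 567 called against Mac II 1.70% of the genes tested were higher and 2.24% lower. Median differences over all genes were 0.05, 0.10 and 0.14 on the log2 scale. In all 3 comparisons 68 genes were higher (0.472%) and 0.882% of the genes were lower, and these comparisons share the Mac IV libraries. With all 15 subtypes in the fit, where 15600 genes were tested, 41, 26 and 14 genes were called. Of 11 alternatives that kept every library, 10 called C1qa against Mac II and 10 called Ccl24 in each comparison. Of the calls over the listed and named genes, 24 (10.9%) were kept in the fit of all 15 subtypes, among them C1qa against Mac III and Mac V and Ccl7 and Ccl12 against each of the 3. Without the Mac IV library of the female 63.3% of them were kept and without that of the male 65.2%. The share of genes called fell from 5.24% to 2.89% and 2.36% against Mac III, from 7.07% to 2.90% and 2.33% against Mac V, and from 3.94% to 1.58% and 0.897% against Mac II, without the female and the male library respectively. Without a Mac III library it was 1.67% or 1.47% against Mac III, and without the Mac V library of the male 3.95% against Mac V. Without a Mac II library it was 2.05% or 1.70% against Mac II. Of the calls over the listed and named genes, 52% held whichever single library was left out and 39 held in no such fit. C1qa, Ccl7, Ccl12 and Ccl24 were called in each of the 3 comparisons whichever single library was left out.

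Complement genes, C1q included, were mostly higher in Mac IV than in Mac III. Of 11 tested, 6 were higher and 0 lower than in Mac III, 4 and 1 than in Mac V, and 2 and 1 than in Mac II, with medians of 3.51, 2.00 and 1.95. Among all genes tested, 2.78%, 3.74% and 1.70% were higher and 2.45%, 3.33% and 2.24% lower. C3ar1, the receptor for the fragment C3a, stood at 791 and 555 CPM against 5.46 and 0.781 in Mac III (7.77 ± 1.07, adjusted p = 0.00584). Cfp, properdin, which stabilises the alternative pathway convertase, was higher than in Mac III (3.51 ± 0.34) and Mac V (1.80 ± 0.32); the call against Mac V was lost on the shared run (1.37, adjusted p = 0.0643) and in 3 of 4 fits without a library. C3, the central component, went the other way, at 28.2 and 13.9 CPM against 419 and 449 in Mac V (-4.43 ± 0.46, adjusted p = 0.00187).

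Among 12 CC chemokine genes, 5 were higher and 2 lower than in Mac III, 5 and 0 than in Mac V, and 6 and 0 than in Mac II. Those counted as higher include the markers Ccl7, Ccl12 and Ccl24 in each comparison. Over all genes tested, 2.78%, 3.74% and 1.70% were higher and 2.45%, 3.33% and 2.24% lower. Ccl2, the main ligand of CCR2, stood at 1187 CPM in the female and 3986 in the male, against 24.3 and 9.07 in Mac III, 112.2 and 224.1 in Mac V and 0 reads in Mac II. In mast cells it stood at 1452 and 1780 CPM, above the Mac IV library of the female. Ccl2 was higher than in Mac III (7.31 ± 0.89, adjusted p = 0.00553) and Mac V (3.91 ± 0.76, adjusted p = 0.0282), and both calls were lost on the plates of the run that both animals share (9.27 and 3.68, adjusted p = 0.0817 and 0.263). Ccl4, a chemokine made by activated macrophages, was higher than in Mac II (13.52 ± 1.86). The 2 that were lower than in Mac III were Ccl6 (289.04 and 623 CPM against 13072 and 16291; -4.98 ± 0.47) and Ccl9 (-1.23 ± 0.27). Ccl5 reached 200.6 CPM in the female and 1 cell held 99.4% of its reads. Of 7 CXC chemokine genes tested, 2 were higher in each comparison and 0 lower. Pf4, platelet factor 4, stood at 4729 and 8575 CPM against at most 0.671 in the other 3 subtypes (14.27 ± 2.19 against Mac III). Cxcl16, a ligand of CXCR6 that is also made in membrane-bound form, stood at 551 and 365.7 CPM against 44.5 and 11.2 in Mac II (4.04 ± 0.69, adjusted p = 0.0256; 3.64 on the shared run, adjusted p = 0.0583).

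Of 6 chemokine receptor genes, 3 were higher and 0 lower than in Mac III, 2 and 1 than in Mac V, and 0 and 1 than in Mac II. For these and the growth factors below, the shares over all genes were 2.78%, 3.74% and 1.70% higher and 2.45%, 3.33% and 2.24% lower. Ccr2 stood at 149.3 and 80.7 CPM in Mac IV, 572 and 893 in Mac V and 631 and 399 in Mac II, and was lower than in Mac V (-2.74 ± 0.56, adjusted p = 0.0268). It reached 10 CPM in 20 Mac IV cells (14.1%), against 60.4% of Mac V cells. Cx3cr1, the fractalkine receptor, stood at 1041 and 838 CPM and was higher than in Mac III (10.93 ± 1.70), while its difference from Mac V was 1.33 ± 1.13 (adjusted p = 0.513). Of 14 growth factor genes, 2 were higher and 0 lower than in Mac III, 6 and 0 than in Mac V, and 2 and 0 than in Mac II. The 6 against Mac V include the marker Igf1. Gas6, a bridge between dying cells and the receptors AXL and MERTK, stood at 292.8 and 326.9 CPM against at most 0.284 in the other 3 (10.23 ± 0.88 against Mac III, adjusted p = 0.000888). Axl itself was lower than in Mac III (103.6 and 105.7 CPM against 588 and 441; -2.28 ± 0.32) and Mac II (-3.45 ± 0.33), and Mertk, at 88.5 and 64.3 CPM, was called in no comparison. Bmp2, a bone morphogenetic protein, was low, at 17.6 and 35.5 CPM, and higher than in each of the 3, but with the animal as a block its adjusted p was 0.0542, 0.0785 and 0.0867. Igfbp4, which binds IGF1, stood at 641 and 679.8 CPM against at most 16.9 in the others, without passing the test (adjusted p = 0.0696, 0.110 and 0.137).

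Receptors for uptake were higher in Mac IV for 7 of 15 genes against Mac III, 7 against Mac V and 5 against Mac II, and lower for 2, 1 and 2. Among all genes tested, 2.78%, 3.74% and 1.70% were higher and 2.45%, 3.33% and 2.24% lower. Stab1, a scavenger receptor, stood at 1185 and 1503 CPM against at most 19.7 in the other 3 (6.34 ± 1.03 against Mac II, adjusted p = 0.0176). On the shared run that difference was 6.26 (adjusted p = 0.0892), and 1 of 4 fits without a library kept the call, whereas the calls against Mac III and Mac V were kept in 4 of 4. Folr2, the folate receptor beta, had no read in any of the 3 and stood at 110.6 and 72.3 CPM, at least 13558-fold higher than in Mac III. Timd4, a receptor for phosphatidylserine, stood at 248.5 and 59.7 CPM against at most 0.132, although 1 cell held 39% of its reads. Lyve1, a hyaluronan receptor, stood at 577 and 374.9 CPM and was found in 51 cells. It was higher than in Mac V (9.20 ± 2.10, adjusted p = 0.0400; with the animal as a block 0.0663). Cd163, the haemoglobin scavenger receptor, was found in 44 cells, and it was higher than in Mac III and Mac II (adjusted p = 0.0367 and 0.0490; with the block 0.0610 and 0.0794), and no fit without a library kept either call. Mrc1, the mannose receptor, was higher than in Mac V alone (9.49 ± 0.91).

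**Figure D3:**
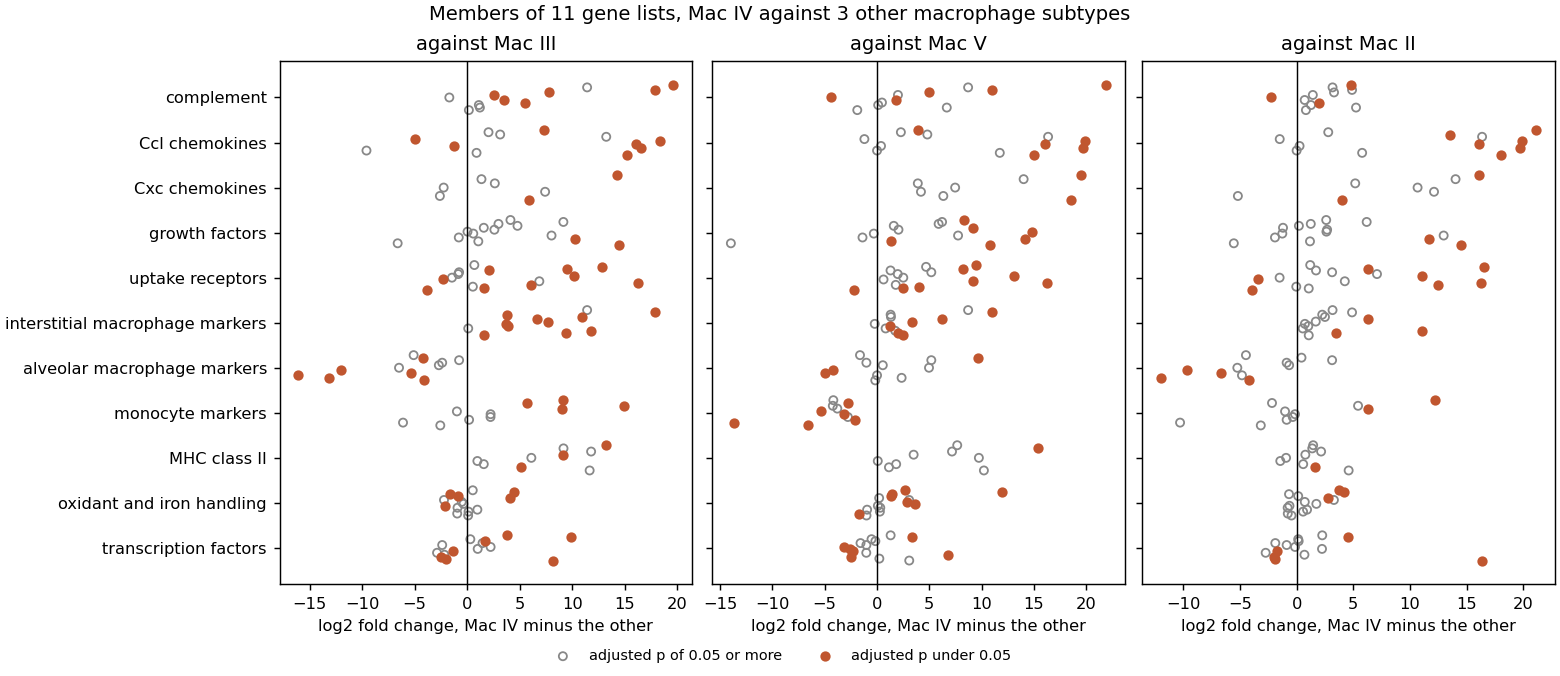
Each point is 1 gene of 1 of 11 lists, and the horizontal axis is the log2 fold change, Mac IV minus Mac III, Mac V or Mac II; filled points passed an adjusted p of 0.05 in edgeR. Interstitial genes lie to the right against Mac III (10 of 12 called), alveolar genes to the left (6 of 11), and monocyte genes to the left against Mac V (6 of 10).

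Genes of the air space were lower in Mac IV mainly against Mac III and Mac II, and genes of monocytes against Mac V. Ear1 and Ear2, secreted ribonucleases of alveolar macrophages and eosinophils, stood at 0.0419 and 0.0764 CPM and at 30.2 and 22.6 CPM, and each was lower than in all 3 other subtypes (Ear2 by -5.32 ± 0.28 against Mac III and -6.67 ± 0.30 against Mac II). Krt79 had no read in Mac IV, at least 5828-fold lower than in Mac III. Marco, another scavenger receptor of alveolar macrophages, stood at 908 and 335.7 CPM and was called in no comparison; 1 cell held 42.6% of its reads. Of 10 monocyte genes, 6 were lower than in Mac V and 0 higher, with a median of -3.99; against Mac II, 2 were higher and 0 lower, with a median of -0.61. Spn, which marks non-classical monocytes, stood at 3.53 and 1.20 CPM against 206.9 and 218.1 (-6.56 ± 1.00), and Ace at 7.77 and 3.03 against 218.5 and 213.1 (-5.39 ± 0.75). Against Mac III, 4 monocyte genes were higher and 0 lower, among them Ccr2 (5.72 ± 0.65) and Plac8, of which 1 cell held 52.5% of the reads. Transcription factors matched no single direction: 4 were higher and 3 lower of 14 against Mac III. Among all genes tested against Mac III, Mac V and Mac II, 2.78%, 3.74% and 1.70% were higher and 2.45%, 3.33% and 2.24% lower. Maf, a factor of tissue macrophages, stood at 719.7 and 729 CPM against at most 79.4 in the others and was higher in all 3 comparisons (3.39 ± 0.58 against Mac V). Of 4 fits without a library, 1 kept the Maf call against Mac V, 2 against Mac II and 4 against Mac III. Cebpb, at 107.7 and 186.7 CPM, was lower in all 3 (-2.46 ± 0.38 against Mac III), and Spi1, which encodes PU.1, was called in none.

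The MHC class II chain H2-Aa was found in few Mac IV cells. H2-Aa stood at 2136 CPM in the female and 539.6 in the male, but reached 10 CPM in 11 of 63 and 6 of 79 cells, 17.5% (exact interval 9.05 to 29.1) and 7.59% (2.84 to 15.8). Of 9 genes of this list, 3 were higher than in Mac III, 1 than in Mac V and 1 than in Mac II, and 0 were lower. Shares over all genes tested were 2.78%, 3.74% and 1.70% higher and 2.45%, 3.33% and 2.24% lower. Other genes of the list were found more often, Cd74, the invariant chain, in 60.6% of cells and H2-DMa, a peptide loader, in 54.2%. The call for H2-Aa against Mac III (adjusted p = 0.0446) was lost with the animal as a block (0.0563). H2-Ab1 and H2-Eb1 were not among the genes called against Mac III, although they passed with the block (adjusted p = 0.00701 and 0.00498). Cd86, a costimulatory ligand, was higher than in Mac III (5.14 ± 0.34) and Mac II (1.66 ± 0.29). Every fit without a library kept the Cd86 call against Mac III, and none kept that against Mac II. A single cell had both Lyve1 and H2-Ab1 at 10 CPM, 50 had Lyve1 alone and 16 had H2-Ab1 alone.

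Iron handling differed by gene. Slc40a1, ferroportin, the iron exporter, stood at 757 and 449.8 CPM and was higher in all 3 comparisons (4.48 ± 0.54 against Mac III, 11.96 ± 0.76 against Mac V, 4.15 ± 0.53 against Mac II). Fth1, the ferritin heavy chain, stood at 9298 and 9159.7 CPM, lower than in Mac III (-1.66 ± 0.21) and higher than in Mac V (1.42 ± 0.21). Hmox1, which breaks down haem, stood at 3744 and 1840.1 CPM and was higher than in Mac V (2.66 ± 0.57) and Mac II (3.70 ± 0.59); on the shared run alone the differences were 1.39 and 2.55 (adjusted p = 0.196 and 0.0714). Of 14 genes of this list, 2 were higher and 3 lower than in Mac III, 6 and 1 than in Mac V, and 3 and 0 than in Mac II. Shares over all genes tested were 2.78%, 3.74% and 1.70% higher and 2.45%, 3.33% and 2.24% lower. Among 16 matrix and protease genes, Ctsb, cathepsin B, was higher in all 3 comparisons (1.51 ± 0.28 against Mac III). Of 4 fits without a library, 1 kept the Ctsb call against Mac III, 2 against Mac V and 1 against Mac II. Fn1, fibronectin, was lower than in Mac V (-2.74 ± 0.45) and Mac II (-3.07 ± 0.45). Spp1, osteopontin, was lower than in Mac III (-2.21 ± 0.47) and higher than in Mac V (6.54 ± 0.57), and on the shared run alone the difference from Mac III was -2.07 (adjusted p = 0.348). Of 10 cytokine genes tested, Tslp, a cytokine of barrier tissues, was low, at 9.76 and 29.8 CPM, and higher than in Mac III and Mac V, while Il18 was lower than in Mac III (-1.75 ± 0.38) and Mac II (-2.16 ± 0.39). No fit without a library kept these calls for Tslp or Il18, and on the shared run the adjusted p of Tslp against Mac III was 0.0511. Cycling genes were called in no comparison with Mac III or Mac V, and of 10 only Ube2c was called against Mac II. At least 4 of the 10 were found at 5 reads or more in 26 Mac IV cells, all of which carried C1qa and Igf1 at 10 CPM.

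Ordered by the smallest of the 3 differences, the leading genes above all 3 other subtypes were Ccl7, Ccl12, Folr2, Ccl8, Ccl24, Fcrls, Pf4, Mgl2, Gas6 and Saa3. Folr2, Ccl8, Pf4 and Mgl2 each lost a call in some fit without a library. Fcrls, an Fc receptor-like gene, stood at 1122 and 1089 CPM against at most 0.0755 (14.58 ± 0.73 against Mac III, adjusted p = 0.000137) and was found in 120 cells. Mgl2, a lectin, stood at 66.3 and 68 CPM but at 1825 CPM in DC II of the female. Saa3, an acute-phase gene, stood at 551 and 493 CPM from 7 cells, of which 1 held 52.1% of the reads. The leading genes below all 3 were Ear2, Gcnt2, Mcemp1, Nedd9, Cd274, Naip2, Atp8b4, Abcd2, Pag1 and Ptpn12. Atp8b4, Abcd2, Pag1 and Ptpn12 each lost a call in some fit without a library, and Pag1 against Mac II in all of them. Cd274, PD-L1, stood at 16.3 and 9.45 CPM against 56 to 253.1 in the others (-3.83 ± 0.76 against Mac III). None of the 4 fits without a library kept its call against Mac III. Of 4 such fits, 1 kept the Cd274 call against Mac V and 1 that against Mac II. Both of these calls were also lost when the block for animal was fitted (adjusted p = 0.0515 and 0.0521). Against every library of the other 14 subtypes, 130 of 2762 genes with at least 50 CPM in both Mac IV libraries (4.71%) had their lower Mac IV library above the highest other one. The leading 10 were Ccl12, Folr2, Ccl8, Ccl24, Pf4, Fcna, Ms4a7, Ms4a14, C1qc and C1qa. Ms4a7, a membrane protein of macrophages, stood at 1204 and 1850 CPM, 50.5 times the highest other library for its lower one, and Fcna, ficolin A of the lectin complement pathway, at 1139 and 424 CPM, 70.6 times.

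Over single cells, the C1q genes moved together, and so did Ccl2 and Ccl7. Likeness is Spearman's rho over the cells of each animal, averaged over both. It was computed among 5998 genes with 10 CPM in at least 20% of Mac IV cells. It is a description, since cells share an animal and differ in depth. C1qa was most like C1qb (0.78), C1qc (0.75) and Itm2b (0.53). Ccl7 was most like Ccl2 (0.71), Pf4 (0.53) and Gas6 (0.51), and Ccl12 most like Ccl7 (0.50), Ccl2 (0.46) and Fcrls (0.41). Ccl24 was most like Ednrb (0.51), an endothelin receptor, Fcna (0.47) and Cd163 (0.47), and not like C1qa (0.00) or Ccl12 (-0.02). Igf1 was most like Gas6 (0.45), Atp6v0a1 (0.40) and Sbf2 (0.39), and its rho with Ccl7 was 0.18. Pairs chosen after their values were seen include Stab1 with Mrc1 (0.68), Lyve1 with the endothelial marker Egfl7 (0.55), Lyve1 with Cd163 (0.52), Ccr2 with Gas6 (-0.51) and Ccr2 with Stab1 (-0.48).

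**Figure D4:**
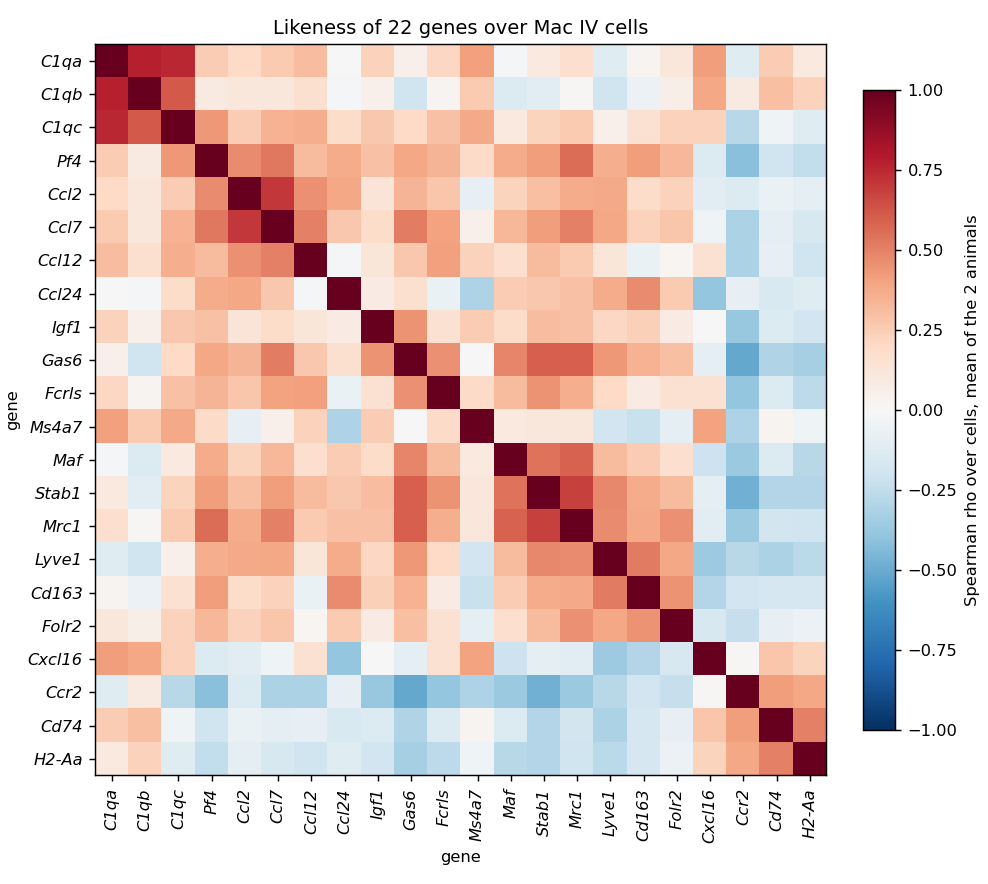
Each square is Spearman's rho of 2 of 22 genes over Mac IV cells, computed in each animal and averaged, from -1 (blue) to 1 (red). C1qa, C1qb and C1qc form a block (0.61 to 0.78), Ccl2 and Ccl7 reach 0.71, and Ccr2 is negative with Gas6 and Stab1.

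Some Mac IV cells carried markers of other cell types. At least 3 of 4 endothelial markers (Cdh5, Kdr, Cldn5 and Egfl7) reached 50 CPM in 11 Mac IV cells (7.75%), 7 of the female and 4 of the male, and in 1 of 47 cells of Mac II. No cell of Mac III or Mac V did so, which, taking 3 cells as the limit of a count of 0, allows shares of up to 0.769% and 2.70%. All 11 also carried C1qa, at 858 to 8693 CPM, and 1 of them was the cell from the CD31 plate. The 4 endothelial markers summed to 779 CPM in the female and 200.5 in the male. T cell markers were found in this way in 3 cells, B cell markers in 2 and erythroid markers in 1; neutrophil, mast cell, basophil, dendritic, epithelial and mesenchymal markers in 0 cells, which allows up to 2.11%. The median C1qa level was 2069 CPM in the 17 cells with markers of another type and 4819 in the other Mac IV cells. Without these 17 cells, an alternative added after seeing the data, 699, 878 and 491 genes were called against Mac III, Mac V and Mac II, and their part in the results was not otherwise tested.

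The 2 animals differed less in C1q than in Ccl2, Ccl7 and genes of MHC class II. The first CD45 plate of the female was sequenced in another run than the other 3, which shared one. Between the CD45 cells of the animals, C1qa differed 1.34-fold, Igf1 1.13-fold and Ccl24 1.18-fold, whereas Ccl7 was 3.10-fold and Ccl2 3.34-fold higher in the male. Higher in the female were H2-Aa (3.94-fold), H2-Ab1 (3.90-fold), H2-Eb1 (4.28-fold) and Timd4 (4.14-fold). Ccl2 stood at 739 and 1601 CPM on the plates of the female and 2914 and 4595 on those of the male, so the plates did not overlap, and the female plate at 1601 was on the shared run. With 1 animal a sex no test was possible, and genes were listed where they differed at least 4-fold in the animal sums and in each of the 4 pairings of plates. Of 3977 genes with at least 50 CPM in either animal, 21 were listed as higher in the female (0.528%) and 9 as higher in the male (0.226%). None of the 5 markers was listed. Outside Xist and Y-linked genes, those with the largest differences included Hbb-bt, Apln, Car4, Il1rn, Slc2a6, Ecscr, Ly6a, Fpr2 and Cdkn3. Most rested on few cells: 1 cell held 99.7% of the reads of Hbb-bt, a globin gene, and Apln, which encodes the peptide apelin, reached 10 CPM in 5 cells of the female and 1 of the male. Il1rn, the interleukin 1 receptor antagonist, stood at 100.7 and 120.5 CPM on the plates of the female and 3.60 and 4.59 on those of the male, from 8 and 4 cells. Apln, Ecscr, Ly6a and Car4 are known from endothelium, and Car4 is also on the list of alveolar genes. Of the 4 endothelial markers, Kdr was listed too, at 91.2 and 4.03 CPM, and Cdh5, Cldn5 and Egfl7 were not. The source of these reads was not tested. Without the 17 cells with markers of another type, 15 genes were listed for the female and 9 for the male.

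**Figure D5:**
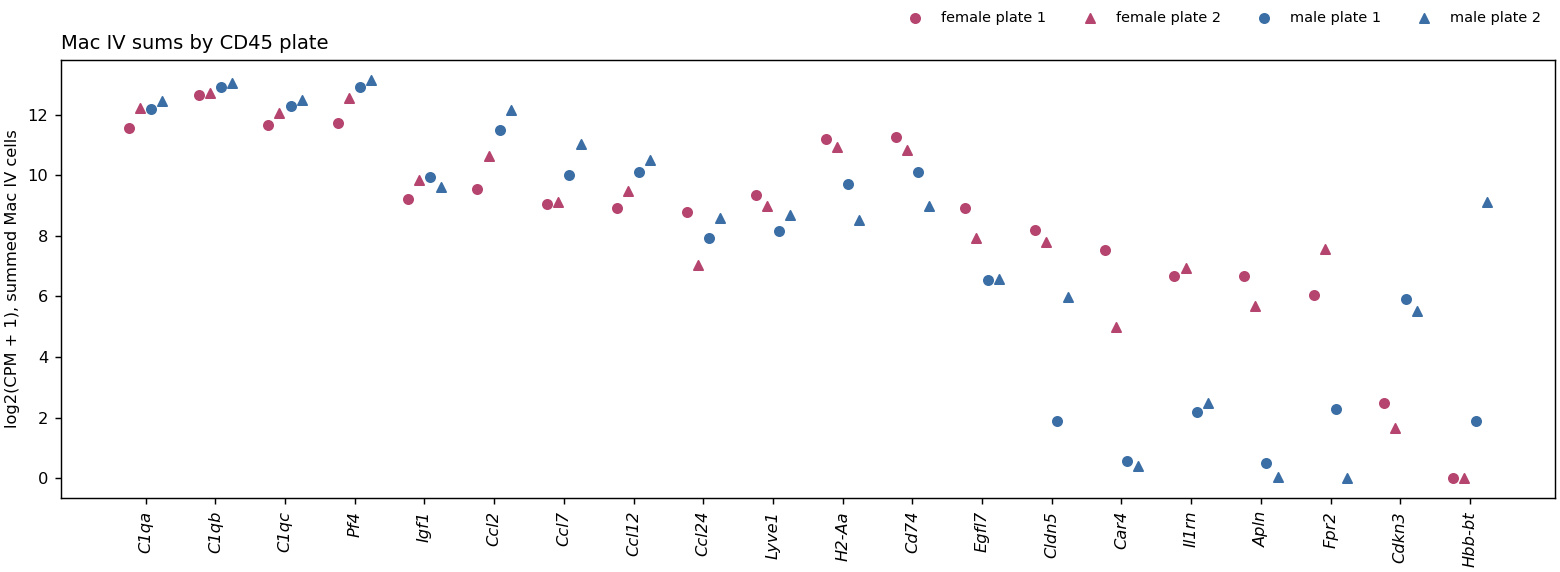
The vertical axis is log2(CPM + 1) of the Mac IV cells summed by CD45 plate, for 20 genes; circles and triangles are plates 1 and 2 of each animal. The C1q genes lie close together on all 4 plates, Ccl2 and Ccl7 are higher on both plates of the male, and Apln, Car4 and Il1rn on both of the female.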

How the data were processed

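Raw read counts per gene and cell were used as the authors deposited them, whole numbers over 18072 genes and 1183 cells, from plate-based libraries made with the Tn5 transposase per the labels' protocols. The submitters' processing notes name STAR 2.5.2b, HTSeq 0.10 and the build GRCh38, which is a human build name, so no gene coordinates are given apart from those of the RefSeq promoter windows. The labels name no molecular identifiers. Values of near-identical or overlapping genes, such as neighbouring chemokines and globins, are uncertain where the counting could split their reads. Each cell's subtype, animal, gate, plate and run came from the labels.

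For each animal and subtype, the cells' counts were added up. The model held the 8 libraries of Mac II, Mac III, Mac IV and Mac V, with the edgeR 4.0.16 quasi-likelihood test (R 4.3.3), TMM normalisation and filterByExpr, which left 14400 genes, and a Benjamini-Hochberg adjusted p under 0.05 was called. On simulated counts, 8-fold changes were called for 48% of genes against Mac III, 38% against Mac V and 44% against Mac II. CPM was scaled to the summed library. With 2 animals, p-values measure only the spread between these 2. Libraries of the same animal carry the same replicate number, and their deviations correlated with r from 0.10 to 0.28 over the 6 pairs of subtypes, so the animal was also fitted as a block. Gene lists (26), named genes and rules were chosen with earlier results of these data known. Genes named from the comparisons were up to 10 called the same way in all 3 comparisons, with the libraries not overlapping and at least 50 CPM in the higher group, ordered by the smallest difference; up to 10 highest in Mac IV over every other subtype; the 3 most like each marker over cells; and up to 10 listed between animals. Predicted genes (Gm with a number, or a name that ends in Rik), pseudogenes ending in -ps, ribosomal protein genes (Rpl, Rps) and mitochondrial genes (mt-) were not named. A few genes that these rules name are not reported here. Vsig4, Cd209f and Siglec5 have no row under that symbol. A group at 0 reads was set to 3 reads over both animals, which gives a lower bound of the fold. No doublet caller was run. Alternatives were all 15 subtypes in the fit, other normalisations and tools (DESeq2 1.42.0, limma 3.58.1), no filter, subsets of runs, gates and cells, and leaving out each library; they are reported in the closing section.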

Additional observations from a re-analysis of the deposited data

Results flagged for a closer look

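Among the named and listed genes, those were looked for whose difference from another macrophage subtype was at least 4-fold in each animal but in opposite directions, on the log2(CPM + 1) scale; the 4-fold minimum was chosen here. Chil3, a chitinase-like protein of alveolar macrophages, was higher in Mac IV than in Mac V in the female (3.04) and lower in the male (-4.45). In the female its Mac IV level was 7.23 CPM, and 1 cell held 99.9% of the reads. Irf4 was lower in Mac IV than in Mac II in the female (-3.21) and higher in the male (2.46), with Mac IV at 2.37 and 5.74 CPM and Mac II at 30.1 and 0.226. The difference between the animals was not tested for either gene, since each animal gives 1 library a subtype.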

How the results depend on the processing

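The share of tested genes called against Mac III, Mac V and Mac II was 5.24%, 7.07% and 3.94%. With all 15 subtypes in the fit it was 0.263%, 0.167% and 0.0897% (41, 26 and 14 genes), with DESeq2 15.9%, 22% and 18.2% (2290, 3173 and 2617), and with limma and voom 16.8%, 16% and 8.39% (2421, 2307 and 1208); the cause was not tested. Leaving out 1 library gave 1.47% to 2.89% against Mac III, 2.33% to 4.51% against Mac V and 0.897% to 2.05% against Mac II, with fewer samples in each fit and the lone library assumed to vary like the others. With the animal as a replicate block, 798, 901 and 547 genes were called; of the calls over the listed and named genes, 92.3% were kept and 17 lost, and 26 were gained. No such gene reversed a call in any alternative run. The calls kept were 81.4% on the shared run, 94.1% when every cell was scaled to an equal total, 95% without cycling cells and 94.6% without cells carrying markers of another type. Between animals, 0.754% of genes were listed, against 4.55% at 2-fold, 1.20% at 20 CPM, 1.89% on the shared run and 0.374% when every cell was scaled to an equal total. The shares of cells with each marker, and with both Ccl7 and Ccl12, stayed within their intervals at 1 CPM, at 50 CPM and after thinning to 100000 reads. After thinning, the likeness of Igf1 and Gas6 became 0.46 (from 0.45), of Igf1 and Atp6v0a1 0.34 (0.40), of Lyve1 and Cd163 0.45 (0.52) and of Ccl24 and Cd163 0.43 (0.47). Of simulated 2-fold changes, 0% were called against Mac III and Mac V and 4% against Mac II. Each share rests on 50 genes, and the simulation changed fewer genes than were called in the data. The shares therefore do not give the power in these data, though changes of that size may be missed with 2 animals.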

Other observations

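The single cell labelled Mac I, which entered no test, also held C1q reads: 271.3 CPM of C1qa, 3761 of C1qb and 1415 of C1qc in 2440163 reads. It had 0 reads of Ccl7, Ccl12, Ccl24, Igf1 and Pf4, 1 read of Stab1, and 1827 CPM of Ccr2 and 1681 of Top2a, a gene of dividing cells. The Mac IV cell from the CD31 plate of the male had C1qa at 1787 CPM beside the endothelial genes Egfl7 at 4528, Cldn5 at 2955, Kdr at 846 and Cdh5 at 754 CPM, in 617957 reads.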
